A study of Rattus norvegicus with 30 samples.

Results

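Hippocampal gene expression 6 h after kainate was compared with that 6 h after phosphate-buffered saline (PBS) in rats, using 3 kainate arrays and 3 control arrays of 30 in the series. The series followed both treatments at 1, 6, 24, 72 and 240 h, as 10 groups of 3 arrays, and total RNA of hippocampus was hybridised to Affymetrix arrays. All groups are rats with no other allele or agent named, and strain, age, sex and dose are not given in the sources used here. The labels number the replicates and do not say that each came from a separate animal, and the p-values therefore cover only array-to-array spread, which may be technical. Of 8740 probe sets that are no array controls, 5391 (61.7%) exceeded a signal of 35 on at least 3 of the 6 arrays and were tested. They include 4508 with a single named gene, which stand for 3236 genes.

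Kainate is a glutamate analogue that opens ionotropic glutamate receptors of the kainate and AMPA classes, and given to rats it produces long-lasting limbic seizures. The hippocampus, with its excitatory CA3 recurrent network, is among the regions most strongly engaged. Strong synaptic activity raises calcium and activates kinases that switch on immediate early transcription factors, and these are followed by effector genes, neuropeptides and growth factors. Prolonged seizures also set off glial and vascular inflammatory signalling.

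Several facts of the arrays bear on the values. The deposited signals had one common level, and each was used with a floor at signal 10.85, so that lower signals were set to that value before taking log2. The 3 kainate arrays resembled each other closely (Pearson r across probe sets 0.976 to 0.979), whereas control arrays correlated at 0.945 to 0.971. Control replicate 2 stood apart: its correlation with the kainate arrays was 0.898 to 0.910, and 0.924 to 0.949 was seen for the other controls. An array-weighted fit gave control replicate 2 a weight of 0.51, the lowest of the 6, whose other weights ran from 1.05 to 2.44. The 3 prime to 5 prime log2 ratio, a measure of RNA integrity, was higher by 0.08 for Gapdh and differed by -0.11 for beta-actin after kainate (exact permutation tests, two-sided, p = 0.1 and p = 0.2). The smallest p that 3 against 3 arrays allow is 0.1. Neuronal, astrocytic and oligodendrocytic markers were measured on every array, with summed signals of at least 7609.

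At 6 h after kainate the hippocampus differed from control mainly by genes that were higher. In limma's moderated test with Benjamini-Hochberg adjustment, 249 of 5391 probe sets passed at an adjusted p of 0.05 (4.62%), 204 of them higher (3.78%) and 45 lower (0.835%). At an unadjusted p of 0.05 the number was 850. Of the risen probe sets 140 exceeded 2-fold, 55 exceeded 4-fold and 24 exceeded 8-fold, and their median log2 change was 1.29. Of the fallen probe sets 14 exceeded 2-fold and 2 exceeded 4-fold, with a median of -0.81. At 1531 probe sets (28.4%) the signals of the 2 groups did not overlap at all, 562 higher and 969 lower after kainate, and all 204 risen probe sets and 44 of the 45 fallen ones were among them. The median change over all tested probe sets was -0.10. Without control replicate 2, 178 passed (155 higher, 23 lower), and with array weights 627 passed (356 higher, 271 lower). Because RNA came from bulk tissue, fewer cells of a type and less RNA per cell cannot be told apart.

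Rises were found at every level of control signal. Of the 1348 probe sets brightest in controls (above 293.9) 40 rose and 11 fell, and of the 1348 dimmest (up to 68.3) 83 rose and 4 fell. The last counts are set partly by the filter, which admitted a probe set below 35 in all controls through its kainate arrays alone. A gene was represented by its probe set with the highest mean log2 signal over the 6 arrays, a mean that a rise after kainate lifts. On that footing 106 of 3236 genes were higher (3.28%) and 33 were lower (1.02%), and the median change of all genes was -0.12.

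**Figure D1:**
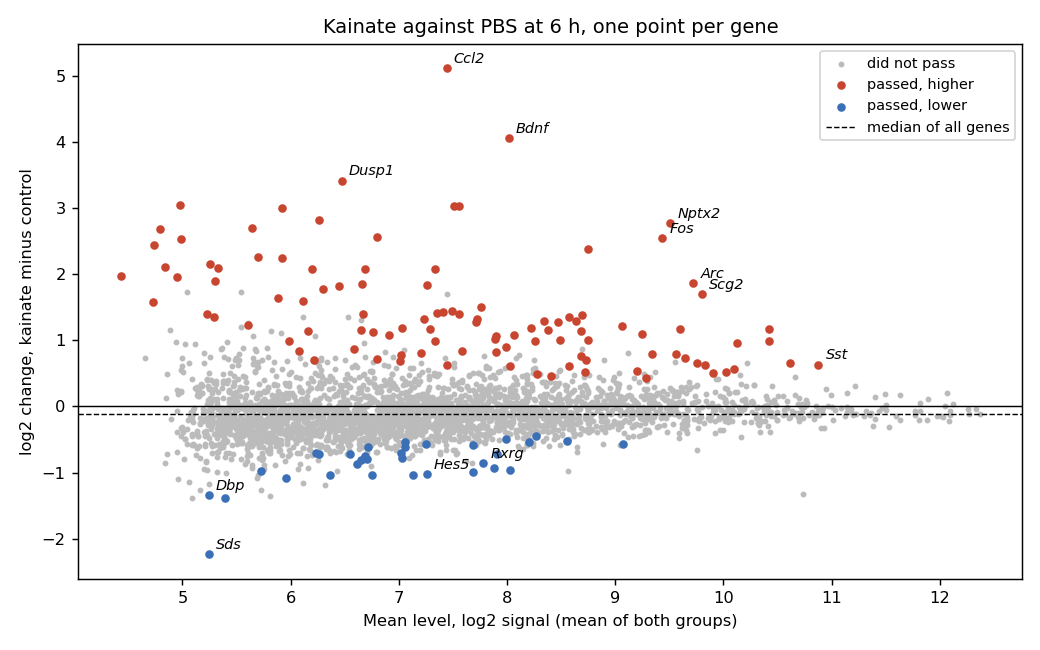
Each point is a gene, placed by its mean log2 signal over both groups (x axis) and by its log2 change, kainate minus control, at 6 h (y axis). The 106 higher genes (red) reach a log2 change of 5.11, the 33 lower genes (blue) reach -2.24, and the dashed line is the median of all genes at -0.12.

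Immediate early transcription factors formed the group with the most frequent rises but for the feedback inhibitors. Of 23 measured members 16 were higher and none was lower, with a median log2 change of 1.12, against 3.28% higher and a median of -0.12 over all genes. Cebpb, a leucine-zipper factor of acute-phase and cytokine genes, read 41.7, 49.7 and 45.9 on the control arrays and 259, 246 and 305 on the kainate arrays (log2 2.56 ± 0.22, adjusted p = 2.96e-09, 5.89-fold). Its groups lay far apart and both of its tested probe sets passed. Fos, the AP-1 subunit used as a marker of neuronal activity, read 266, 267 and 326 in controls against 1751, 1501 and 1760.1 after kainate (log2 2.55 ± 0.18, adjusted p = 6.70e-11). All 3 of its probe sets passed.

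Fosl1 (Fra-1), a later AP-1 subunit, read 7.79, 13.5 and 8.14 in controls against 67.3, 44.0 and 86.3 after kainate (log2 2.44 ± 0.37, adjusted p = 4.16e-05). 2 of its control arrays lay at the floor. All of its controls were below the filter signal of 35, so Fosl1 was admitted through its kainate arrays alone. The count of risen factors is therefore set partly by the filter. Nr4a1, an orphan nuclear receptor induced by depolarisation, read 214, 141 and 215 in controls against 871, 868 and 1190.4 after kainate (5.18-fold, adjusted p = 5.23e-07). The members that did not pass included Klf6 (log2 1.31), Myc (1.07), Id1 (0.49) and Jund (-0.13). A dimmer Myc probe set did rise, from 18.2, 9.74 and 3.55 in controls to 95.7, 78.6 and 69.9 after kainate (log2 2.65, adjusted p = 5.00e-05).

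Inhibitors that shut down kinase and cytokine signalling rose along with the transcription factors. Of 13 measured members 10 were higher (76.9%, beside 3.28% of all genes) and none lower. The count was 6 when all 6 arrays had to exceed 35. The median was 1.09, and all 13 had a positive change. Dusp1, which dephosphorylates MAP kinases, read 29.1, 25.5 and 26.9 in controls against 306, 239.8 and 328 after kainate (10.6-fold, log2 3.41 ± 0.51, adjusted p = 3.12e-05), and all 3 of its probe sets rose. Errfi1 (Mig6), an inhibitor of EGF receptor kinases, read 56.9, 86.5 and 49.7 in controls against 507, 453 and 589 after kainate (log2 3.04 ± 0.20, adjusted p = 6.33e-12). No kainate array of either gene came near a control array.

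Socs3, the suppressor of cytokine receptor signalling through JAK and STAT, read 17.5, 21.5 and 25.6 in controls against 196, 161 and 156 after kainate (log2 3.0 ± 0.39, adjusted p = 3.32e-06). Smad7, the inhibitory Smad of TGF-beta receptors, read 17.2, 20.2 and 20.9 in controls against 78.3, 89.3 and 80.4 after kainate (log2 2.09 ± 0.39, adjusted p = 5.33e-04). Nfkbia, which holds NF-kappaB in the cytoplasm and is itself an NF-kappaB target, read 46.7, 33.2 and 74.6 in controls against 207, 200.1 and 208 after kainate (log2 2.07 ± 0.38, adjusted p = 4.93e-04). The kainate signals of Nfkbia were nearly equal on the 3 arrays while its controls spread more than 2-fold. Cish (0.71), Zfp36l1 (0.34) and Spry1 (0.18) did not pass, although a second Zfp36l1 probe set rose (log2 1.18, adjusted p = 1.98e-04).

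The promoters of the genes that rose were read for short motifs of activity-dependent factors, and 4 windows are shown as examples of 3 of the 5 motifs searched. Windows are the 250 bases before the RefSeq start site (GRCr8), 5′ to 3′ in the direction of the gene, with the motif in capitals. The Dusp1 window (chr10:17184603-17184852, plus strand) holds the cyclic AMP response element TGACGTCA, whose first base lies 124 bases before the start site. The window of Scg2, a granin that rose, (chr9:88256867-88257116, minus strand) holds the same element 123 bases before the start. The window of Egr2 (chr20:21054442-21054691, minus strand), an immediate early zinc finger factor that rose (log2 2.25), holds a CArG box, the binding sequence of serum response factor, 83 bases before the start. The Nfkbia window (chr6:78597073-78597322, minus strand) holds an NF-kappaB site 31 bases before its start.
Dusp1: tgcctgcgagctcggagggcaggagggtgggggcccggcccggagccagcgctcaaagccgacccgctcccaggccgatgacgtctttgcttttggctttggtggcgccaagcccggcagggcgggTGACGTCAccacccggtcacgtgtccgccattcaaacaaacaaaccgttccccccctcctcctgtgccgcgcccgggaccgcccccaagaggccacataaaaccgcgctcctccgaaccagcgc
Scg2: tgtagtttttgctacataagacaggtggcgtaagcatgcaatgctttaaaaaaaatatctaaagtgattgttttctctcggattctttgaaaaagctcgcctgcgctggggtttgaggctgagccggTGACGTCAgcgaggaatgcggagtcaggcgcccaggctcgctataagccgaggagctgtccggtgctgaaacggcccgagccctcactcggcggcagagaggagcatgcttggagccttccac
Egr2: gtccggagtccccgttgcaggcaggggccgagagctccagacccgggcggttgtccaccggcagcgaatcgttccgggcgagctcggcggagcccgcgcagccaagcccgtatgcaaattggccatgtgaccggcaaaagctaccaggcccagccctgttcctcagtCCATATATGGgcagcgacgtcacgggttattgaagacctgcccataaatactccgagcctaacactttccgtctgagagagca
Nfkbia: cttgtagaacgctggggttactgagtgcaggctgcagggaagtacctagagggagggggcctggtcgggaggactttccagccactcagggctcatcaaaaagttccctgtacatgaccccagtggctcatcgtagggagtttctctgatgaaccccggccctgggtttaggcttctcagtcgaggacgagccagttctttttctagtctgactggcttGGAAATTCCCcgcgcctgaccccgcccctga

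Of the 106 genes that rose 84 matched a RefSeq promoter, with 98 windows, and of the 3236 tested genes 2655 matched, with 2890 windows. Both strands were searched and a palindrome was counted once. TGACGTCA stood in 6.12% of the risen windows, in 2.42% of all tested windows and in 1.59% of the 33469 windows of the whole table. The AP-1 site, TGACTCA on either strand, stood in 8.16%, 3.49% and 4.05% of the same windows, and the CArG box in 4.08%, 1.52% and 1.5%. For the NF-kappaB site the shares were 6.12%, 4.08% and 3.54%, and for the STAT site TTCCNGGAA 2.04%, 1.0% and 1.07%. Of the 98 risen windows 6 held TGACGTCA, 8 the AP-1 site and 4 the CArG box. The NF-kappaB site was in 6 and the STAT site in 2. These are few windows, and the differences between shares were not tested. Of the 35 windows of fallen genes 2 held the CArG box (5.71%) and 1 the NF-kappaB site (2.86%), and TGACGTCA, the AP-1 site and the STAT site were found in 0, too few windows to set the shares apart. Both CArG windows belong to Ints6l and start 1 base apart, so they hold the same box. By gene the CArG box stood in 1 of 26 fallen genes (3.85%) and 4 of 84 risen genes (4.76%). TGACGTCA stood in 5.95% of risen and 2.45% of tested genes, as Crem has 2 of the 6 risen windows. A match describes letters in a window and is not evidence of binding.

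Inflammatory genes held the tallest rise of all. Of 24 measured chemokines, cytokines and acute inflammatory genes 8 were higher (33.3%, beside 3.28% of all genes) and none lower. Their median was 0.60. The count was 2 when all 6 arrays had to exceed a signal of 35, which removes genes dim in controls. Ccl2, the monocyte chemoattractant, read 29.7, 34.4 and 25.0 in controls against 1044, 994 and 1013 after kainate (log2 5.11 ± 0.43, adjusted p = 1.75e-09, 34.6-fold), and both its probe sets passed. Ccl3, another chemokine of microglia and macrophages, read 2.88, 3.29 and 2.68 in controls against 66.3, 60.1 and 85.9 after kainate. Its 3 controls lay below the floor, so the rise was at least 6.45-fold (adjusted p = 9.16e-06).

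Ptgs2 (cyclooxygenase-2), the inducible enzyme of prostaglandin synthesis in neurons, read 69.4, 35 and 100.5 in controls against 420.5, 509 and 627 after kainate (log2 3.03 ± 0.31, adjusted p = 7.11e-08). Stat3, the transcription factor downstream of interleukin-6 type cytokines, read 35.6, 33.6 and 29.8 in controls against 122, 72.2 and 123 after kainate (log2 1.64 ± 0.39, adjusted p = 0.00878). Its kainate replicate 2 was lower than the other kainate arrays, and the call was lost without kainate replicate 1 (adjusted p = 0.0563) or replicate 3 (0.0658). The classical early cytokine Il1b read 30.4, 30.9 and 44.1 in controls against 37.3, 48.5 and 40.1 after kainate and did not pass (log2 0.27 ± 0.34). Lif, an interleukin-6 type cytokine, read 14.3, 21.2 and 19.1 in controls against 64.5, 59.4 and 54.5 after kainate, groups that do not overlap, yet it did not pass (log2 1.73 ± 0.67, adjusted p = 0.169). The remaining members ran from -0.47 for Nos2 to 1.27 for Tgfb1 among those that did not pass.

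Genes of proteolysis and matrix remodelling were a further group. Of 26 measured matrix and protease genes 8 were higher (30.8%, beside 3.28% of all genes) and none lower. Their median was 0.28, and 4 were higher when all 6 arrays had to exceed 35. Ccn1 (Cyr61), a matricellular protein, read 8.12, 6.42 and 5.89 in controls against 68.0, 99.3 and 105 after kainate, a rise of at least 8.23-fold since all controls lay below the floor (adjusted p = 8.83e-06). Mmp9, a gelatinase that cleaves basement membrane, read 15.3, 13.9 and 10.1 in controls against 71.2, 76.4 and 81.4 after kainate (log2 2.53 ± 0.45, adjusted p = 3.48e-04). Its control replicate 3 was at the floor.

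Both the urokinase receptor Plaur and Serpinb2, an inhibitor of plasminogen activators, rose. Plaur read 17.8, 22 and 14.7 in controls against 78.3, 68.4 and 93.7 after kainate (log2 2.15 ± 0.36, adjusted p = 1.73e-04), and Serpinb2 read 14, 17.2 and 9.63 in controls against 61.4, 46.7 and 71.7 after kainate (log2 2.10 ± 0.41, adjusted p = 0.00112). Plat, the tissue plasminogen activator, rose 2.73-fold (log2 1.45 ± 0.19, adjusted p = 2.98e-06), while Plau, urokinase itself, had a log2 change of 0.33 and did not pass. F3, tissue factor, which starts the extrinsic coagulation cascade and was not on the list, read 27.1, 32.0 and 27.3 in controls against 229.6, 187 and 193 after kainate (log2 2.82 ± 0.24, adjusted p = 1.49e-09, 7.05-fold). Cd44, the hyaluronan receptor, rose 3.52-fold from 46.8 ± 8.82 to 163 ± 2.11 (SD, n = 3 arrays; adjusted p = 2.87e-05). Structural collagens and proteoglycans were not among the calls: Col1a1 (-0.04), Col3a1 (-0.23), Vcan (-0.11) and Bcan (-0.18) did not pass.

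**Figure D2:**
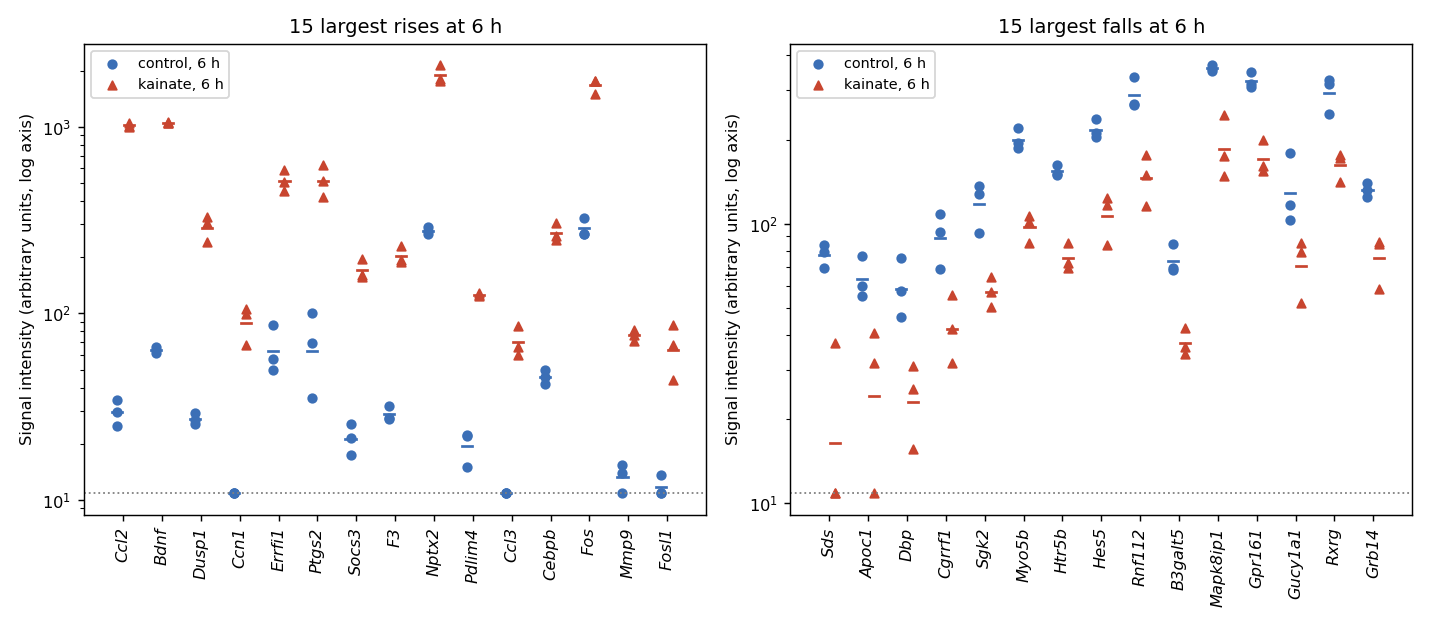
Signal intensity on a log axis for the 15 genes with the largest rise (left) and the 15 with the largest fall (right) among those that passed without overlap, with each array as a point and the group's geometric mean as a bar. Blue circles are the 3 control arrays and red triangles the 3 kainate arrays of 6 h. The dotted line is the floor at 10.85, to which lower signals were raised, and each gene's groups are separate. Ccl2, Ccl3, Ccn1, Dusp1, F3, Fosl1, Mmp9, Pdlim4 and Socs3 lay below 35 in all controls. The filter admitted those genes through their kainate arrays alone, and Dbp through its control arrays alone.

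Synaptic effectors of neuronal activity were higher in 9 of 15 measured members (60%, beside 3.28% of all genes). None was lower, and the median was 0.96. Nptx2 (Narp), a secreted pentraxin that clusters AMPA receptors, read 278, 289 and 268 in controls against 1762, 1809 and 2135 after kainate (log2 2.77 ± 0.15, adjusted p = 2.18e-13, 6.82-fold). Its adjusted p was the smallest of the 62 named genes. Arc, which removes AMPA receptors from synapses, read 334, 501 and 499 in controls against 1447, 1437 and 1934 after kainate (log2 1.86 ± 0.15, adjusted p = 1.21e-09). Syt4, a synaptotagmin of dense-core vesicles, read 387, 351 and 319.8 in controls against 843, 751 and 849 after kainate (log2 1.21 ± 0.14, adjusted p = 3.64e-07). Syt4 was also the member called among 22 measured genes of synaptic vesicles and release, a list whose median was -0.08. Nptx1, the constitutive relative of Nptx2, changed by 0.37 and did not pass, nor did Inhba (0.95), the activin subunit.

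Of 33 measured growth factors and receptors 2 were higher (6.06%, beside 3.28% of all genes), none was lower, and the median was -0.07. Those were Bdnf and Hbegf. Vegfa and Fgfr1 did not pass on their brightest probe sets (log2 0.82 and 0.34). Each rose on a dimmer probe set (log2 2.30, adjusted p = 0.0241, and 0.87, adjusted p = 0.0135). The higher count was 5 when all probe sets of a gene were averaged, and array weights gave 4 higher and 2 lower. Bdnf, the neurotrophin of activity-dependent plasticity, read 63.4, 61.5 and 66.1 in controls against 1047, 1053 and 1062 after kainate (log2 4.05 ± 0.26, adjusted p = 6.33e-12, 16.6-fold). The arrays of each group lay close together, and 5 of its 7 probe sets rose. The probe set given had the largest change of the 7, and its kainate signal counted in its choice. Its control mean was 63.7, below 84.4 for a probe set that did not pass (log2 -0.22) and 83.9 for another that rose (log2 3.05). Hbegf, a heparin-binding ligand of the EGF receptor, read 31.8, 37.8 and 37.4 in controls against 158, 138 and 157 after kainate (log2 2.08 ± 0.35, adjusted p = 1.31e-04). The Bdnf receptor Ntrk2 changed by 0.17, Ntrk3 by -0.62 and the neurotrophin Ntf3 by -0.11, and none of these passed.

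Neuropeptides and granins rose in moderate steps. Of 21 measured members 9 were higher (42.9%, beside 3.28% of all genes) and none lower, with a median of 0.47. Scg2 (secretogranin II), a granin of dense-core vesicles whose promoter is printed with that of Dusp1, read 594, 529 and 374 in controls against 1696, 1637 and 1448 after kainate (log2 1.70 ± 0.18, adjusted p = 1.51e-07). Crhbp, which binds and sequesters corticotropin-releasing hormone, read 36.3, 36.9 and 46.5 in controls against 107, 127 and 125 after kainate (log2 1.59 ± 0.41, adjusted p = 0.0191). The Crhbp call was lost in 4 of the 6 fits that leave out an array (without control replicates 1 or 2 or kainate replicates 2 or 3), where its adjusted p reached 0.0804. Penk, the enkephalin precursor of granule cells and interneurons, read 102, 122 and 86.2 in controls against 262, 229.7 and 345 after kainate (log2 1.43 ± 0.23, adjusted p = 7.62e-05), and Tac1, the substance P precursor, rose 2.46-fold (log2 1.30 ± 0.22, adjusted p = 1.83e-04). The precursors Pdyn (-0.24) and Trh (-0.14) did not pass, nor did Cck (0.52, adjusted p = 0.106).

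The same peptides were the interneuron markers called. Of 12 measured markers 4 were higher (33.3%, beside 3.28% of all genes), namely Penk, Tac1, Sst and Npy, and none was lower. Sst (somatostatin) read 1394, 1604 and 1535 in controls against 2379, 2159.7 and 2492 after kainate (1.55-fold, log2 0.63 ± 0.14, adjusted p = 0.00604), while its second probe set did not pass (log2 0.30, adjusted p = 0.164). Npy read 324, 386 and 347 in controls against 448, 507 and 564 after kainate (1.44-fold, log2 0.52 ± 0.13, adjusted p = 0.0179). The Npy call was lost without control replicates 1 or 3 or kainate replicates 2 or 3 (adjusted p up to 0.139). Markers that are no peptides gave 0.18 for Gad1, 0.30 for Gad2, -0.15 for Slc32a1 and -0.39 for Pvalb, and none passed. The summed signal of the 12 markers was 5071 to 5463 on control arrays and 6642 to 7190 on kainate arrays. That sum includes the called peptides and is no separate result. Their mean signals went from 1511 to 2344 for Sst, 208 to 507 for Tac1, 103 to 279 for Penk and 352 to 506 for Npy.

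Markers of the main cell types gave no calls at 6 h. In the limma fit none of 15 neuronal, 11 astrocyte, 8 oligodendrocyte or 7 granule and pyramidal cell markers passed, with 2, 0, 0 and 0 of them at an unadjusted p under 0.05. The neuronal sums were 16555 to 17953 in controls and 17668 to 17831 after kainate. Among reactive astrocyte genes 5 of 16 were higher (31.2%, beside 3.28% of all genes) and the median was 0.43. The list shares Socs3, Stat3, Cd44, Hspb1 and Timp1 with others. The count of higher members was 3 when all 6 arrays had to exceed 35. It was 3 without control replicate 3 or kainate replicate 1 and 2 without kainate replicate 3. Hspb1 lost its call with any array left out. Vim (0.60) and Nes (-0.29) did not pass. The astrocyte sums were 12221 to 13895 in controls and 11715 to 12785 after kainate, and the oligodendrocyte sums 8216 to 8554 and 7609 to 8299. Granule and pyramidal cell markers summed to 4660.4 to 5444 and 4506 to 5061.

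Of 9 measured microglial and macrophage markers 2 were higher (22.2%, beside 3.28% of all genes). Another 4 (Itgam, Csf1r, Fcgr2b and Cd74) were too dim to test. Lgals3 (galectin-3), a lectin of activated phagocytes, read 21.6, 12.1 and 12.8 in controls against 37.9, 50.5 and 47.1 after kainate (log2 1.58 ± 0.37, adjusted p = 0.00812), and its call was lost without control replicate 2 (adjusted p = 0.0594) or 3 (0.0523). Lgals3 lay below the filter in all controls and was admitted through its kainate arrays alone. The count of higher markers is therefore set partly by the filter. C1qb, a chain of complement C1q, read 115, 65.1 and 79.4 in controls against 189.9, 143 and 261 after kainate (log2 1.19 ± 0.25, adjusted p = 0.00224). The other 7 measured markers ran from -0.61 for Ptprc to 0.28 for Cd14. The microglial sums were 1514 to 1548 in controls and 1539 to 1726 after kainate. Choroid plexus markers, an index of tissue at the ventricle, summed to 1830 to 4640 in controls and 1001 to 2522 after kainate. None of its 5 markers passed (2 at an unadjusted p under 0.05), and all 5 were lower, led by Ttr at 2649.8, 3894 and 1266 in controls against 479, 1966 and 896 after kainate. Blood markers summed to 3506 to 4569 and 3123 to 3717, and 3 T cell markers to 237 to 320.4 and 157 to 213, with Lck called lower (a call lost without control replicate 2 or 3 or kainate replicate 1 or 3), while 6 further neutrophil and T cell markers were too dim to test. Among 6 endothelial markers Slc2a1 rose and lifted their sums from 739.6 to 874 in controls to 933 to 1117, while the other 5 ran from -0.48 for Slco1a4 to 0.01 for Acta2 and the list's median was -0.14. None of 8 markers of neighbouring regions passed (0 at an unadjusted p under 0.05), with sums of 1084 to 1263 and 1078 to 1127. Whether these differences bear on the lower genes was not tested.

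**Figure D3:**
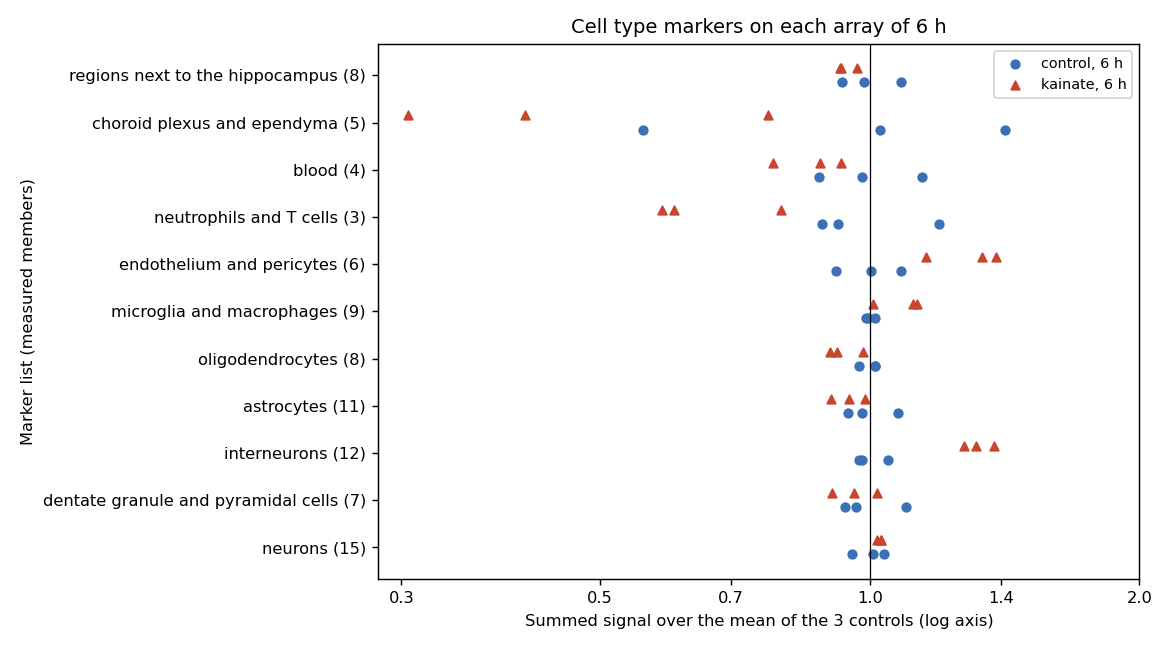
Summed signal of each cell type marker list on each array of 6 h, divided by the mean of the 3 controls (log axis), with the number of measured markers in brackets. The interneuron sums of the 3 kainate arrays (triangles) lie above those of the 3 controls (circles). They include the called peptides Sst, Tac1, Penk and Npy. The neuronal, astrocyte and oligodendrocyte sums lie near 1, and the choroid plexus sums spread widely in both groups.

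Stress and metabolic genes showed single members rather than whole lists. Of 21 heat shock and endoplasmic reticulum genes 3 rose (14.3%, beside 3.28% of all genes), and 1 rose without control replicate 2. Hspa5, the chaperone of the endoplasmic reticulum, read 645, 615 and 603 in controls against 1049, 1111 and 941 after kainate (log2 0.73 ± 0.12, adjusted p = 1.90e-04). Hsph1, a co-chaperone of Hsp70, rose 1.58-fold (adjusted p = 0.00373, and 0.0514 without control replicate 2). Hspb1, a small heat shock protein, rose 2.0-fold (log2 1.00 ± 0.28, adjusted p = 0.0338), a call lost with any array left out (adjusted p up to 0.136). Its 3 other probe sets gave log2 3.32 (adjusted p = 1.46e-09), 2.56 (4.43e-06) and -0.35 (0.518), so the rise was larger on 2 dimmer probe sets and did not pass on 1.

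Of 21 oxidative stress genes 2 rose (9.52%, beside 3.28% of all genes), and 1 rose without control replicate 2. Hmox1, which degrades heme, read 103, 127 and 84.6 in controls against 246, 226 and 224 after kainate (log2 1.17 ± 0.23, adjusted p = 0.00132), with 1 of its 2 probe sets passing. Txnrd1, thioredoxin reductase, rose 1.62-fold (adjusted p = 0.0318) and kept its call in 1 of 6 fits without an array (without control replicate 1; up to 0.229 in the others), and its second probe set did not pass (log2 0.25). Slc2a1 (GLUT1), which carries glucose across brain endothelium, read 277, 189 and 221 in controls against 566, 481 and 604 after kainate (log2 1.28 ± 0.16, adjusted p = 2.40e-06) and was the member called of 22 genes of glucose use. No glycolytic enzyme passed, and Hk1 (-0.26), Aldoa (-0.10) and Pkm (-0.05) lay near the median of all genes.

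Of 16 genes of cholesterol synthesis 2 rose (12.5%, beside 3.28% of all genes). Idi1, isopentenyl diphosphate isomerase, read 263, 221 and 188 in controls against 489.9, 449 and 549 after kainate (log2 1.16 ± 0.21, adjusted p = 3.55e-04), and Msmo1, a sterol oxidase, rose 1.55-fold (log2 0.63 ± 0.13, adjusted p = 0.00199). Among 11 glucocorticoid-responsive genes 5 rose (45.5%, beside 3.28% of all genes), and 3 rose when all 6 arrays had to exceed 35. Of the 5, Dusp1, Errfi1 and Nfkbia are described with the feedback inhibitors. Sgk1, a kinase that regulates ion transport, read 141, 109.7 and 99.0 in controls against 265, 308 and 341 after kainate (log2 1.4 ± 0.20, adjusted p = 1.32e-05). The receptors themselves, Nr3c1 (-0.26) and Nr3c2 (-0.56), did not pass.

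**Figure D4:**
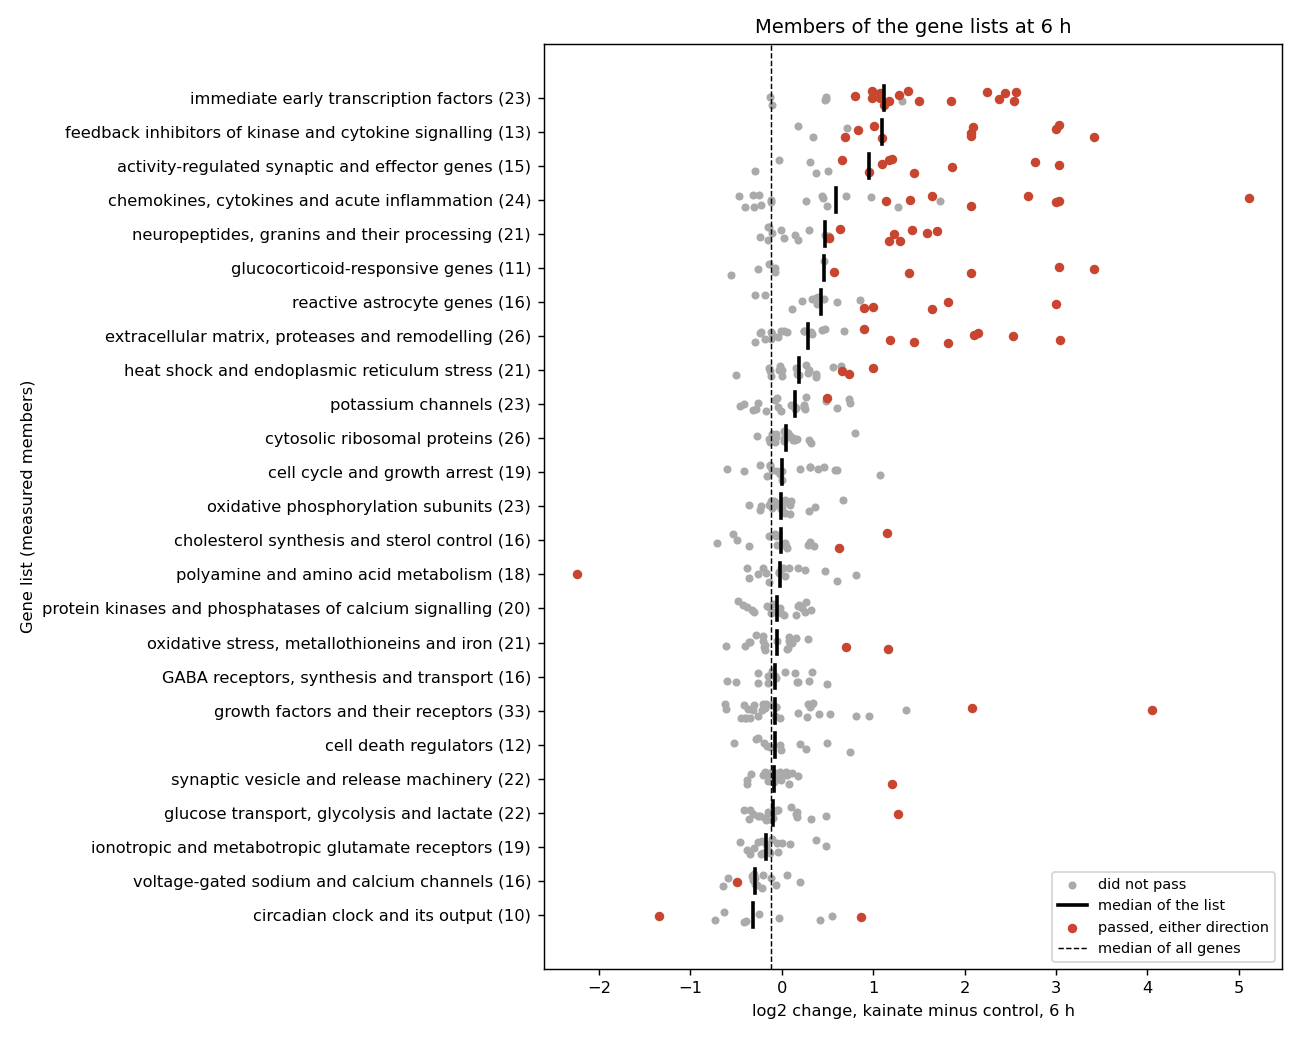
log2 change, kainate minus control, of each measured member of the 25 gene lists, ordered by the list's median (black bar), with members that passed in red and the median of all genes as the dashed line at -0.12. Immediate early factors, feedback inhibitors and activity-regulated effectors have medians near 1, while receptor, channel, ribosomal and respiratory lists lie near the dashed line.

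Of 33 genes that fell, the named ones are of several kinds. Sds, serine dehydratase of amino acid breakdown, read 79.3, 69.4 and 84.0 in controls against 8.81, 37.5 and 9.11 after kainate (log2 -2.24 ± 0.58, adjusted p = 0.0188). Its kainate replicates 1 and 3 lay at the floor, and the call was lost without control replicate 2 or 3 or kainate replicate 1 or 3 (adjusted p up to 0.128). It was the call among 18 genes of polyamine and amino acid metabolism. Apoc1, a small apolipoprotein, read 55.1, 76.8 and 59.7 in controls against 10.3, 40.7 and 31.8 after kainate (log2 -1.39 ± 0.39, adjusted p = 0.0313). Its call did not survive leaving out control replicate 2 or 3 or kainate replicate 1 (adjusted p up to 0.292).

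Dbp, a PAR-domain factor at the output of the circadian clock, read 75.4, 46.4 and 57.4 in controls against 30.9, 25.6 and 15.6 after kainate (log2 -1.34 ± 0.25, adjusted p = 5.20e-04). It was the member that fell of 10 measured clock genes, whose median was -0.32; with array weights 4 of the 10 fell. Bhlhe40, a repressor in the clock loop, rose 1.82-fold (adjusted p = 0.0188), a call lost without control replicate 3 or kainate replicate 1 or 3 (up to 0.101). Nr1d2 read 91.7, 79.0 and 73.2 in controls against 36.7, 64.0 and 49.9 after kainate and Tef read 319, 386 and 324 in controls against 244, 244 and 179 after kainate, both without overlap, and neither passed (adjusted p = 0.0797 and 0.131).

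Several receptors and signalling proteins were lower. Htr5b, a serotonin receptor, read 149, 162 and 151 in controls against 85.0, 72.1 and 69.6 after kainate (log2 -1.03 ± 0.19, adjusted p = 6.65e-04). Rxrg, a retinoid X receptor, read 316, 246 and 327 in controls against 172, 176 and 141 after kainate (log2 -0.86 ± 0.15, adjusted p = 3.55e-04). Hes5, a repressor downstream of Notch, read 210.3, 205 and 236 in controls against 116, 124 and 83.9 after kainate (log2 -1.03 ± 0.25, adjusted p = 0.00919); both probe sets fell, and the call was lost without control replicate 3 (adjusted p = 0.0552) or kainate replicate 3 (0.0991). Myo5b, a myosin of recycling endosomes, read 194, 219 and 187 in controls against 106, 101 and 85.5 after kainate (log2 -1.04 ± 0.18, adjusted p = 2.58e-04), and Rnf112, a brain RING finger protein, read 266, 267 and 335 in controls against 116, 149 and 176 after kainate (log2 -0.99 ± 0.18, adjusted p = 4.67e-04). B3galt5, a galactosyltransferase, fell 1.97-fold (log2 -0.98 ± 0.19, adjusted p = 9.42e-04).

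Mapk8ip1 (JIP1), a scaffold of the JNK cascade, read 368, 357 and 352 in controls against 148, 244 and 175 after kainate (log2 -0.96 ± 0.22, adjusted p = 0.00594). The call was lost without kainate replicate 1 (adjusted p = 0.0609). Grb14, an adaptor that inhibits the insulin receptor, fell 1.75-fold (adjusted p = 0.00403, and 0.0676 without kainate replicate 3). Gpr161, a receptor of the primary cilium, fell 1.91-fold (adjusted p = 0.0167) and Gucy1a1, a subunit of the nitric oxide receptor guanylate cyclase, 1.83-fold (adjusted p = 0.0399). Each of these lost its call without control replicate 2, kainate replicate 2 or kainate replicate 3, with adjusted p up to 0.0949 and 0.328. Sgk2, a relative of the risen Sgk1, fell 2.05-fold (adjusted p up to 0.114 without control replicate 2 or 3 or kainate replicate 1 or 3). Cgrrf1, a RING finger protein, fell 2.11-fold (up to 0.0684 without control replicate 2 or kainate replicate 1). Lck, a Src-family kinase listed here as a T cell marker, fell 1.72-fold (up to 0.267 without control replicate 2 or 3 or kainate replicate 1 or 3).

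Receptors and channels gave few calls at 6 h. None of 19 glutamate receptor genes (median -0.18) and none of 16 genes of GABA receptors, synthesis and transport (median -0.07) passed, with 1 and 2 at an unadjusted p under 0.05. Among 16 sodium and calcium channel genes Cacna1b, the N-type calcium channel, read 284, 299 and 317 in controls against 231, 224 and 189 after kainate and fell (adjusted p = 0.0457), a call lost with any array left out (up to 0.266) and not shared by its second probe set (log2 -0.22). Of 23 potassium channel genes Kcnk1, a leak channel, rose 1.4-fold (adjusted p = 0.0232), lost without control replicate 1 or 3 or kainate replicate 2 or 3 (up to 0.18). By the brightest probe set of each gene, calcium-signalling kinases and phosphatases (20 measured), cell cycle genes (19), cell death regulators (12), subunits of oxidative phosphorylation (23) and ribosomal proteins (26) had no call, with medians from -0.07 to 0.04. At an unadjusted p under 0.05 these lists held 2, 4, 1, 0 and 0 genes, and array weights called 1, 3, 1, 0 and 0 of them. Array weights also called 2 GABA genes and 4 potassium channel genes, and 1 cell cycle gene rose without control replicate 1. In the same limma fit these calls stand beside 3.28% higher and 1.02% lower over all genes. On dimmer probe sets, Myc of the cell cycle list rose (log2 2.65, adjusted p = 5.00e-05), and so did Ndufab1 of oxidative phosphorylation (0.95, adjusted p = 0.0361).

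The 6 h response was set against the other times, each with its own controls. The 1 h comparison called 62 of the 5391 probe sets (1.15%) and the 24 h comparison 698 (12.9%). Those of 72 h and 240 h called 3 (0.0556%) and 2 (0.0371%). Of the 204 probe sets risen at 6 h, 40 were also higher at 1 h and 50 at 24 h, 18 were lower at 24 h, and 118 were higher at no other time. Of the 45 that fell, 40 were lower at no other time and 2 were higher at 24 h. Failing the threshold at a time does not show that a gene was unaltered then, so the difference was tested directly. The effect at 6 h differed from the mean effect at the other 4 times at 222 probe sets (4.12%), 168 higher at 6 h and 54 lower, and these included 143 of the risen and 27 of the fallen probe sets. All these counts rest on probe sets filtered on the 6 h arrays alone. A probe set bright only after kainate at 6 h was admitted, and a probe set bright only at another time was left out. The counts can therefore lean toward rises at 6 h.

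The genes with the smallest p in that test differ in how they reach 6 h. Their log2 changes follow in the order 1, 6, 24, 72 and 240 h. Fos changed by 2.20, 2.55, 0.01, -0.25 and 0.71, and Arc by 2.11, 1.86, -0.70, -0.41 and -0.00, so both were already high at 1 h. Bdnf changed by 0.39, 4.05, 1.11, -0.08 and 0.43, F3 by 0.24, 2.82, 0.89, 0.09 and -0.03 and Syt4 by 0.05, 1.21, -0.02, -0.32 and -0.58. The change at 6 h was the largest of the 5 times for Bdnf, F3, Syt4 and Fos, and for Errfi1, Nptx2 and Cebpb. Those last genes also passed as higher at 1 h (log2 1.32, 1.05 and 1.04). Only Arc was higher at 1 h than at 6 h. The Bdnf values are those of its probe set with the highest mean over the 6 arrays, kainate arrays included. Some of its other probe sets passed as higher at 1 h in the limma fit (log2 1.14, adjusted p = 9.39e-05, and 1.42, adjusted p = 0.0240). Those changed by 3.05 and 3.38 at 6 h. Lgals3 rose further, to 4.40 at 24 h, and the test of its 6 h effect against the other times did not pass (adjusted p = 0.913). Dbp had the opposite sign at 24 h (1.38, adjusted p = 4.78e-04), and its 6 h effect differed from the other times (adjusted p = 9.64e-05). Hes5 had a change of -1.01 at 24 h, close to its 6 h value.

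**Figure D5:**
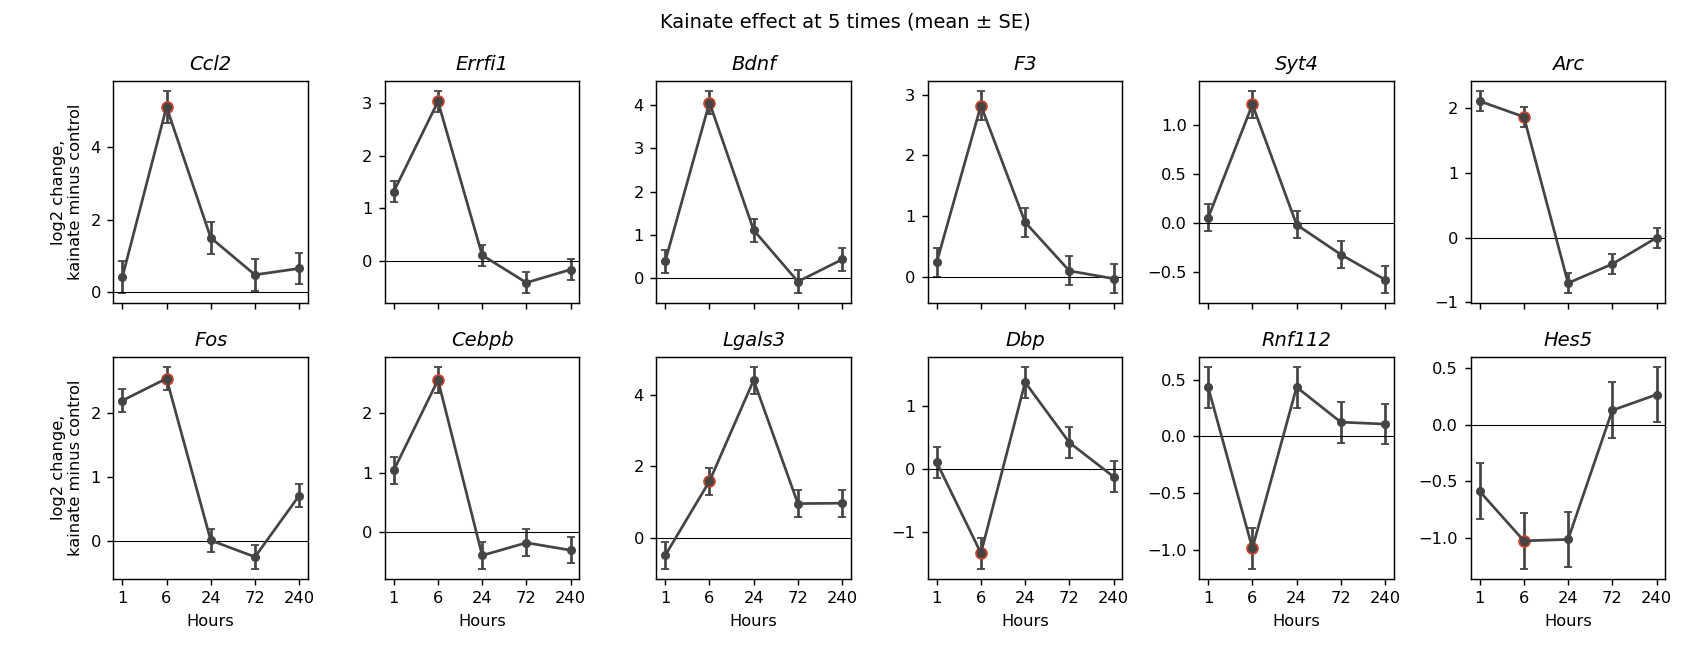
log2 change, kainate minus control, at 1, 6, 24, 72 and 240 h (spaced evenly, not to scale) for 12 genes, with bars of 1 standard error from the fit over 30 arrays; the 6 h value is red and each y axis has its own range. Ccl2, Errfi1, Bdnf, F3, Syt4, Fos and Cebpb are highest at 6 h, with Fos also high at 1 h. Arc is high at 1 and 6 h, Lgals3 peaks at 24 h, and Dbp turns from -1.34 at 6 h to 1.38 at 24 h.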

How the data were processed

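The deposited values are linear signal intensities, 1 for each array and probe set. The software behind these intensities and its settings are not given in the sources used here. Trimmed means (2% off each end) of the deposited arrays were 150.1 to 150.2. The number of arrays limits the precision.

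Scaling brought each array to the shared trimmed mean, with a floor at the 20th percentile (signal 10.85), before log2. A fold against a group wholly at the floor is a lower bound. A limma 3.58.1 model (R 4.3.3) with 10 group means over all 30 arrays and an intensity trend gave the contrasts (20 residual and 6.89 prior degrees of freedom), so the 6 h arrays share their spread with the other times. P-values were adjusted by Benjamini-Hochberg over 5391 probe sets, at a threshold of 0.05. The procedure was tested on simulated data. Tables were made with Python 3.11.15 and pandas 2.3.3.

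Gene names came from the platform annotation: of 8740 probe sets 7006 had 1 gene, 308 several and 1426 none, and 6985 matched a current identifier. Named are the 15 largest rises and falls without overlap, up to 4 passing list members per direction and the 8 smallest p of the time test; Egr2 was named for its promoter motif and list members that did not pass after their values were seen. The comparison, gene lists and markers were chosen with earlier results of these data known, so counts of list members are descriptions. The labels do not say that equal replicate numbers pair samples, and the fit used no pairing. Correlations of same-numbered deviations were -0.06, 0.06 and 0.06, and those of unlike numbers ran from -0.12 to 0.06. With 3 arrays a group this cannot exclude a pairing or a shared batch. Alternatives were scaling, floor, filter, moderation, array weights, sample sets, a replicate block and leaving out each array.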

Additional observations from a re-analysis of the deposited data

Results flagged for a closer look

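For 8 genes the kainate effect at 6 h was larger than the mean effect at 1, 24, 72 and 240 h, in a limma contrast over 30 arrays adjusted over 5391 probe sets. The log2 difference was 2.83 for Errfi1 (6 h 3.04, mean of the others 0.21, adjusted p = 8.05e-10) and 2.10 for Nptx2 (6 h 2.77, mean of the others 0.67, adjusted p = 8.92e-10). It was 3.59 for Bdnf (6 h 4.05, mean of the others 0.46, adjusted p = 1.56e-09) and 2.52 for Cebpb (6 h 2.56, mean of the others 0.04, adjusted p = 8.37e-08). It came to 2.52 for F3 (6 h 2.82, mean of the others 0.30, adjusted p = 2.62e-07) and 1.62 for Arc (6 h 1.86, mean of the others 0.25, adjusted p = 2.95e-07), and to 1.42 for Syt4 (6 h 1.21, mean of the others -0.22, adjusted p = 2.95e-07) and 1.88 for Fos (6 h 2.55, mean of the others 0.67, adjusted p = 4.58e-07). In each of the 8 genes all 3 kainate arrays of 6 h exceeded all 3 controls, as at all 204 risen probe sets. Over all tested probe sets the groups did not overlap at 28.4%, in either direction. The 8 genes were chosen for the smallest p in this test, so their separation follows from the choice and is no further support.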

How the results depend on the processing

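Of 5391 probe sets 249 passed (204 higher, 45 lower). Array weights gave 627 (356 higher, 271 lower), which hold all 249. A fit on the 12 arrays of 6 and 72 h gave 493, of which 189 were lower, and shared 246. Lower probe sets numbered 68 with the 6 arrays of 6 h alone, 29 with arrays centred on their median (220 higher) and 29 when all 6 arrays had to pass the filter, which tests fewer probe sets. Averaging all probe sets of a gene gave 126 higher genes, against 106. Leaving out each array gave 166 to 305 passing, 145 to 234 higher and 21 to 71 lower probe sets, with the lowest without kainate replicate 3 and the highest without control replicate 1. The lower probe sets were 23 without control replicate 2 and 24 without control replicate 3. The test against other times gave 142 to 328 instead of 222, with 143 without control replicate 2 and 145 without control replicate 3. No direction reversed among the results run. Of 62 named genes, 42 passed whichever single array was left out of the 6; 49 passed without control replicate 2, and 16 of 23 immediate early factors became 17. With the replicate number as a block 245 passed, 226 of them shared, and 200 in the test against other times. By their labels the samples of a block share only a number. Requiring all 6 arrays above the filter, which drops genes dim in controls, left 2 of 8 inflammatory and 6 of 10 feedback genes. Signals near the floor limit folds of dim genes.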

Other observations

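For 35 genes the probe set that stands for the gene did not pass at 6 h while another one did; those named here were chosen after their values were seen. Homer1, a postsynaptic scaffold whose short form is induced by activity, read 121, 152 and 167 in controls against 1299, 1352 and 1523 after kainate (log2 3.25 ± 0.21, adjusted p = 6.33e-12) on 1 of its 6 probe sets, while the brightest changed by -0.03. Cebpd, a relative of Cebpb, read 9.11, 5.04 and 9.27 in controls against 98.4, 75.8 and 124 after kainate (log2 3.17 ± 0.36, adjusted p = 5.23e-07) on 1 of 3, and a second rose as well, while the brightest changed by -0.11. The controls of that Cebpd probe set lay below the floor, so its fold is a lower bound. The insulin receptor substrate Irs2 read 28.0, 19.0 and 15.7 in controls against 108, 131 and 118 after kainate (log2 2.55 ± 0.39, adjusted p = 4.16e-05) on 1 of 2 passing probe sets of 3, and its brightest changed by 0.70.

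In the other direction, the adrenergic receptor Adra1d read 88.8, 106 and 101 in controls against 30.8, 34.9 and 33.0 after kainate (log2 -1.58 ± 0.23, adjusted p = 1.58e-05) on 1 of 2 probe sets, with -0.25 on the brighter. Acsl1, which activates long-chain fatty acids, read 41.0, 61.4 and 36.0 in controls against 4.81, 12.2 and 15.1 after kainate (log2 -1.84 ± 0.51, adjusted p = 0.0334) on 1 of 3, with -0.16 on the brightest. Of 960 genes with several tested probe sets, 78 had a risen one and in 25 all had risen; 11 had a fallen one and in 1, Hes5, all had fallen. Which transcript each probe set reads was not analysed here.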
